A study of Mus musculus with 12 samples.

Results

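The interferon-inducible GTPases described here are 10 genes, Gbp2, Gbp3, Gbp5, Gbp6, Gbp7, Igtp, Irgm1, Irgm2, Iigp1 and Tgtp2, of 54532 genes in the deposited table. They were chosen by name, and the matching rows were read in 12 libraries of mouse colon RNA. All 10 passed the filter on low values, as did 24102 genes in all. The libraries form 4 groups of genotype and treatment, with 3 libraries each. The untreated Tmem173fl/fl group carried a floxed Tmem173 gene (which encodes the DNA-sensing adaptor STING) and no Cre. The untreated Tmem173iΔmye group carried the same floxed gene and a tamoxifen-inducible Lyz2-Cre, labelled Tmem173fl/flLzym-Creert2. The other 2 groups, of the same 2 genotypes, had dextran sulfate sodium (DSS), a chemical that damages the colonic epithelium, in their drinking water over 7 days and are called colitic. All groups, controls included, received 5 tamoxifen injections, and the mice were 6 to 8 weeks old. Lyz2 drives the Cre in myeloid cells, so the deletion is meant for those cells and not for the rest of the colon. The comparisons asked how DSS and the loss of myeloid STING bear on the colon transcriptome.

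The GTPases fall into 2 families of cell-autonomous defence, both switched on by interferons, chiefly interferon gamma. Guanylate-binding proteins (GBPs) are dynamin-like GTPases that gather on microbes and on the vacuoles that hold them, and promote inflammasome activation. Immunity-related GTPases (IRGs) comprise effectors, which load onto vacuoles and rupture them, and regulators, which sit on host membranes and keep the effectors inactive there. In the intestine, epithelial cells as well as macrophages and lymphocytes can make these proteins. RNA of whole colon cannot tell fewer cells of a type from less RNA per cell.

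The genes lie on 4 chromosomes of GRCm38. Gbp5 (chr3:142493978-142522344), Gbp7 (chr3:142530342-142550149), Gbp3 (chr3:142560026-142573209) and Gbp2 (chr3:142620602-142638008) follow each other on the plus strand of chromosome 3. Gbp6 lies at chr5:105270702-105293698 on the minus strand. Irgm1 (chr11:48861968-48871683) and Tgtp2 (chr11:49057194-49064206) are on the minus strand of chromosome 11, and Igtp (chr11:58199556-58207591) and Irgm2 (chr11:58199618-58222782) overlap on its plus strand. Iigp1 is on chromosome 18. All 10 are annotated as protein coding.

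The promoters of 8 of the 10 genes were read, since all members but Gbp5 moved together in the counts described further on. The windows run from 250 bases before to 50 bases after the start site and come from a table of RefSeq promoters (GRCm38.p6). No window of Gbp6 or Iigp1 was read. Both strands were searched for the core of the interferon-stimulated response element, GAAANNGAA (TTCNNTTTC on the other strand). Gbp3 had 2 windows in that table and the other genes 1 each. The core was present in 8 of these 9 windows, 1 for each of the 8 genes and none in the second window of Gbp3, and in 8.56% of 32851 windows of the same length. In 7 of the 9 windows a match began within 100 bases before the start site, as in 2.74% of all windows. The genes were chosen as interferon-inducible, and the stretches of Igtp and Irgm2 are nearly alike, so these shares describe the windows and are not a test. The 100 bases before the start site of each gene are shown to compare where the match lies, with the match in capitals; for Gbp5 200 bases are shown, because its match lies further away. Each is read 5′ to 3′ in the direction of the gene.

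Gbp2: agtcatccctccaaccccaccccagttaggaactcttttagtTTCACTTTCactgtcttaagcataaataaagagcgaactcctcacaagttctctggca
Gbp3: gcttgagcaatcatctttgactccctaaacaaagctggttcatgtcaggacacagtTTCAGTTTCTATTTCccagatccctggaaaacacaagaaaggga
Gbp7: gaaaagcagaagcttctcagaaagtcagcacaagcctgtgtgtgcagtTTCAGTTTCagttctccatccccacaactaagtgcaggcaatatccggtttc
Gbp5: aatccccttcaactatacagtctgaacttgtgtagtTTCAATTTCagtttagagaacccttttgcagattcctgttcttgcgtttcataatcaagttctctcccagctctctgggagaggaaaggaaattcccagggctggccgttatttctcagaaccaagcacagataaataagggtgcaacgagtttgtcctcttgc
Irgm1: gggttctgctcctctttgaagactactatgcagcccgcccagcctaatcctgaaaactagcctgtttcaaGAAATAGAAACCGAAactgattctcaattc
Irgm2: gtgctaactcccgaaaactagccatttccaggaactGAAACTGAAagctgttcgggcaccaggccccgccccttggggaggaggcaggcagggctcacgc
Igtp: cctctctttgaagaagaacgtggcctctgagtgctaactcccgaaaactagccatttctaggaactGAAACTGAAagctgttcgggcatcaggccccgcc
Tgtp2: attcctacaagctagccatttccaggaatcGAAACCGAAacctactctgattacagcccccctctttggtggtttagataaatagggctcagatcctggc

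These stretches are chr3:142620563-142620662 (plus strand) for Gbp2, chr3:142559944-142560043 (plus) for Gbp3, chr3:142530236-142530335 (plus) for Gbp7, chr3:142496734-142496933 (plus) for Gbp5, chr11:48871421-48871520 (minus) for Irgm1, chr11:58214877-58214976 (plus) for Irgm2, chr11:58199456-58199555 (plus) for Igtp and chr11:49064213-49064312 (minus) for Tgtp2. The core began 58 bases before the start site in Gbp2, 52 in Gbp7, 34 in Igtp, 64 in Irgm2 and 70 in Tgtp2. In Gbp3 (44 and 38 bases) and Irgm1 (30 and 24 bases) there were 2 overlapping matches. In Gbp5 the only match began 164 bases before the start site. The gamma-activated site, TTCNNNGAA on either strand, occurred in 5 of the 9 windows (those of Gbp5, Gbp7, Igtp, Irgm2 and Tgtp2) and in 8.3% of all windows, and no such match overlapped a response element core. In Igtp, Irgm2 and Tgtp2 it began 11 bases upstream of the core. A match describes these letters only, and binding was not measured.

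Counts per library totalled from 13823237 to 18718915. No 2 replicates agreed within sampling noise. Tmem173 itself was not detectably lower in Tmem173iΔmye colon, either untreated (log2 difference -0.21, SE 0.22, adjusted p = 1 in edgeR's quasi-likelihood test) or colitic (-0.28, SE 0.26, adjusted p = 0.602), so the counts of whole colon give no check of the deletion. The 10 epithelial marker genes that define the labelled tissue summed to between 2685 and 8722 FPKM in all libraries, and 5 pancreas markers to between 43.3 and 6900 FPKM. The labels do not say that each library came from a separate mouse, so p-values measure the spread between these libraries.

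In healthy Tmem173fl/fl colon the members spanned a wide range of levels per length (FPKM, which divides counts by gene length and depth). Igtp, an IRG regulator, stood at 159 ± 45.1 (SD, n = 3) FPKM and Gbp2, which coats bacteria and pathogen vacuoles, at 152 ± 46.0. Iigp1, an IRG effector also known as Irga6, followed at 118 ± 22.1, and the regulator Irgm2 at 90.4 ± 11.2. The level of Iigp1 and its place in the order are uncertain, because the deposited FPKM rest on a length of 3121 bases and GENCODE M21 gives the gene 5823 exon bases. The ranges of these 4 overlapped from each to the next. Irgm1, a regulator tied to autophagy and mitochondria, stood lower at 53.0 ± 10.2 FPKM, with no overlap with Irgm2. Gbp3 (39.4 ± 16.5) overlapped both Irgm1 above and Gbp7 (26.5 ± 1.60) below it. Tgtp2, the effector known as Irgb6, stood at 19.0 ± 0.246 FPKM, apart from both neighbours. Gbp6 (6.54 ± 2.09) and Gbp5 (5.62 ± 1.62) were lowest and overlapped each other. The 10 genes summed to 529, 674 and 804 FPKM in the 3 libraries.

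DSS lowered 9 of the 10 GTPases in Tmem173fl/fl colon and raised none. A gene is called here at a Benjamini-Hochberg adjusted p under 0.05 in edgeR and a log2 fold change of at least 1 in size. Of all genes tested, 7.61% were called lower and 14.9% higher in the same comparison. The members' log2 fold changes ran from -2.75 (Igtp) to -0.03 (Gbp5) with a median of -2.23, against a median of 0.03 over all genes. For the same 9 genes every colitic library lay under every untreated library, as for 23.4% of all genes in that direction. Means of the 9 genes in colitic Tmem173fl/fl colon were from 14.7% (Igtp) to 25.7% (Gbp7) of those in untreated colon. Leaving out single libraries moved the log2 fold change of Igtp between -3.64 and -2.48 and that of Gbp7 between -2.39 and -1.74. That of Gbp2 moved between -3.02 and -1.96, and 9 members stayed called.

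**Figure D1:**
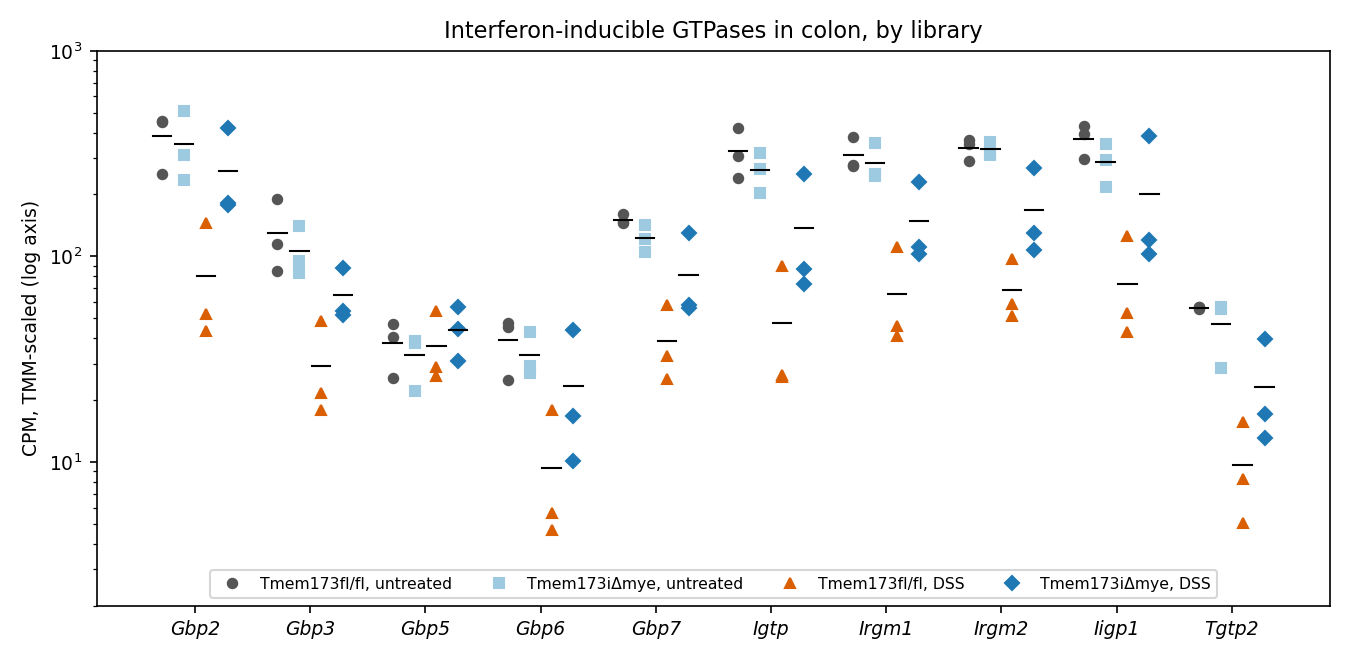
CPM (TMM-scaled read counts, log axis) of the 10 GTPase genes in each of 12 libraries; points are libraries, marked by group, and bars are group means (n = 3). For every gene but Gbp5 the colitic Tmem173fl/fl libraries lie under the untreated ones, and the colitic Tmem173iΔmye means lie between the colitic and the untreated Tmem173fl/fl means.

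Among the IRG regulators, Igtp fell most. Its untreated libraries held 423, 241 and 309 CPM (counts relative to library size, with TMM scaling), and its colitic libraries 26.6, 90.2 and 26.0 CPM. The groups did not overlap, and replicate 2 stood above the other colitic libraries. The log2 fold change was -2.75 (SE 0.47, adjusted p = 0.00136 by edgeR). Irgm2, which restrains the non-canonical inflammasome, had the lowest adjusted p of the members. It went from 369.5, 353 and 289.7 CPM in untreated to 58.4, 96.7 and 51.1 CPM in colitic libraries. This was a log2 fold change of -2.28 (SE 0.24, adjusted p = 7.60e-05 by edgeR). Irgm1 went from a mean of 311 ± 59.7 (SD, n = 3) to 65.8 ± 39.0 CPM, a log2 fold change of -2.23 (SE 0.36, adjusted p = 0.000940 by edgeR). Igtp and Irgm2 share 162 exon bases on the same strand, 8.01% of Igtp and 4.39% of Irgm2, so reads there cannot be assigned to 1 gene.

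Both IRG effectors fell as well. Tgtp2 was level in untreated colon, at 56.4, 55.6 and 56.9 CPM, and stood at 8.22, 15.6 and 5.02 CPM after DSS. Its log2 fold change was -2.52 (SE 0.33, adjusted p = 0.000284 by edgeR). Of the 50-base words in Tgtp2 transcripts, 85.8% also occur in its near-copy Tgtp1, so its count is uncertain. Iigp1 went from 430.5, 296 and 394 CPM to 42.7, 125 and 52.8 CPM. The groups were far apart, and the log2 fold change was -2.33 (SE 0.37, adjusted p = 0.000937 by edgeR).

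Of the 5 GBPs, 4 fell. Gbp2 stood at 452, 251 and 454 CPM in untreated and at 52.6, 146 and 43.4 CPM in colitic Tmem173fl/fl libraries. Again replicate 2 was the highest of the colitic libraries, and the groups did not overlap. The log2 fold change of Gbp2 was -2.24 (SE 0.44, adjusted p = 0.00299 by edgeR). Gbp7, which helps deliver autophagy and oxidase proteins to bacteria, fell from 151 ± 9.11 to 38.6 ± 17.0 CPM (SD, n = 3; log2 fold change -1.95, SE 0.27, adjusted p = 0.000358 by edgeR). Gbp3 and Gbp6, both of which gather on parasite vacuoles, had log2 fold changes of -2.13 (SE 0.40, adjusted p = 0.00218 by edgeR) and -2.04 (SE 0.47, adjusted p = 0.00725). Gbp6 shares 65.0% of its 50-base words with Gm43302 and 1726 exon bases on the same strand, so its count too is uncertain. Gbp7 shares 637 exon bases on the same strand (11.3%) with Gm43802, and reads there cannot be assigned to 1 gene.

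Gbp5, which promotes assembly of the NLRP3 inflammasome, was singled out after its values had been seen. It held 46.7, 25.7 and 40.7 CPM in untreated and 29.0, 54.4 and 26.2 CPM in colitic Tmem173fl/fl libraries. The groups overlapped, with replicate 2 the lowest of the untreated and the highest of the colitic libraries, and the log2 fold change was -0.03 (SE 0.30, 95% interval -0.70 to 0.64, adjusted p = 0.948 by edgeR). That interval does not reach the smallest fall among the other 9 genes, the -1.95 of Gbp7. Leaving out single libraries moved the Gbp5 value between -0.46 and 0.15. The overlap was not particular to Gbp5. Gbp9, a GBP gene outside the 10 that was also picked out after its values had been seen, overlapped too. It held 56.1, 30.0 and 42.9 CPM in untreated and 35.1, 53.9 and 25.7 CPM in colitic Tmem173fl/fl libraries. In the order of FPKM, Gbp5 was last of the 10 in untreated Tmem173fl/fl colon and the eighth in colitic Tmem173fl/fl colon. In both groups its range overlapped that of each neighbour in the order.

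**Figure D2:**
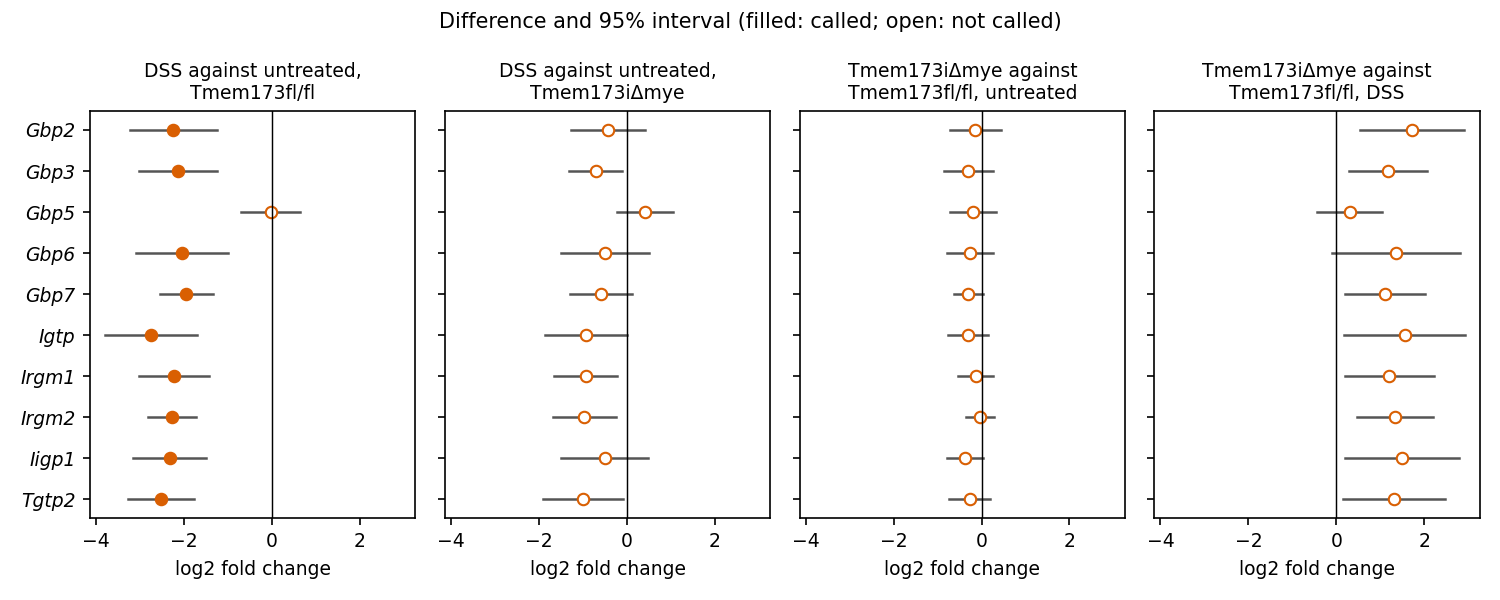
Log2 fold change of each GTPase gene with its 95% interval in 4 comparisons (horizontal axis, edgeR); filled points are called and open points are not. In Tmem173fl/fl mice 9 of 10 points lie between -2.75 and -1.95 and are filled, with Gbp5 at -0.03, and in the other panels all points are open.

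In Tmem173iΔmye mice DSS gave smaller differences, and none of the 10 genes was called. edgeR, DESeq2 and limma each called 0 of 10, and 4 had an unadjusted p under 0.05 in edgeR, as had 15.6% of all genes. Of all genes, 0.597% were called lower and 1.48% higher. Of the members, 9 had lower means after DSS, with a median log2 fold change of -0.65 and a range from -1.002 (Tgtp2) to 0.41 (Gbp5), and the median of all genes was 0.02. The members other than Gbp5 stood at 49.7% (Tgtp2) to 74.0% (Gbp2) of their untreated means. For Irgm1 and Irgm2 the groups did not overlap, 2 of 10 members, against 9.63% of all genes in that direction.

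The spread within colitic Tmem173iΔmye colon was wide, and the number of calls turned on 1 library. Irgm2 held 310.2, 361 and 323 CPM in untreated Tmem173iΔmye libraries and 130.4, 269 and 107 CPM in colitic replicates 1, 2 and 5. Only replicate 2 approached the untreated level (log2 fold change -0.97, SE 0.32, adjusted p = 0.175 by edgeR). Igtp held 204, 266 and 317.5 CPM untreated and 86.4, 250.1 and 73.4 CPM after DSS. Its replicate 2 lay inside the untreated range, and the log2 fold change was -0.93 (SE 0.42, adjusted p = 0.322 by edgeR). Iigp1 held 218, 351 and 293 CPM untreated and 121, 383 and 103 CPM after DSS. Here replicate 2 was the highest of the 6 libraries (log2 fold change -0.50, SE 0.45, adjusted p = 0.651 by edgeR). Without replicate 2 of the colitic group, edgeR called 5 of 10 members lower: Igtp (-1.71), Irgm2 (-1.47), Irgm1 (-1.40), Iigp1 (-1.36) and Gbp7 (-1.10). In that fit 0.407% of all genes were called lower.

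Replicate 2 was the highest library for 10 of 10 members in each of the colitic groups, Gbp5 included. Replicate 3 of colitic Tmem173fl/fl mice was the lowest for 9 members, and replicate 5 of colitic Tmem173iΔmye mice for 9. Summed FPKM of the members was 90.1, 226 and 83.6 in the colitic Tmem173fl/fl libraries. In the colitic Tmem173iΔmye libraries it was 249, 610 and 220. The sum in replicate 2 of colitic Tmem173iΔmye mice therefore fell within the untreated range, and that in replicate 2 of colitic Tmem173fl/fl mice did not.

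Without DSS, no difference between the genotypes was called. edgeR called 0 of 10 members, as it called 0% of all genes; DESeq2 and limma also called 0 members, and 0 had an unadjusted p under 0.05 in edgeR, against 2.99% of all genes. All 10 means were lower in Tmem173iΔmye colon, with log2 differences from -0.38 (Iigp1) to -0.03 (Irgm2) and a median of -0.26, against a median over all genes of 0.00. Gbp7, at 105, 121 and 142 CPM against 161, 146 and 144.5 CPM, was the only member whose groups did not overlap, compared with 3.37% of all genes in that direction. Its log2 difference was -0.30 (SE 0.15, adjusted p = 1 by edgeR). The sign was not stable: for Gbp2, Gbp3, Gbp5, Irgm1 and Irgm2 it turned when a single library was left out.

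In colitic mice all 10 means were higher with the myeloid Cre than without it, but edgeR called none of the differences. By the same rule DESeq2 called 7 of 10 higher, beside 2.75% of all genes, and limma 0, beside 0.154%. With the replicate number as a block 8 of 10 were called, beside 1.55%, though the labels give no pairing behind the numbers. In edgeR 8 members had an unadjusted p under 0.05, as had 20.2% of all genes. Of all genes, edgeR called 0.822% higher. The log2 differences ran from 0.30 (Gbp5) to 1.73 (Gbp2) with a median of 1.32, and the median over all genes was 0.02. Gbp2, Gbp3 and Irgm2 did not overlap between the genotypes, 3 of 10 members, against 10.3% of all genes in that direction.

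Gbp2 showed the largest mean difference. It held 183, 422 and 177 CPM in colitic Tmem173iΔmye libraries, and 52.6, 146 and 43.4 CPM in colitic Tmem173fl/fl libraries as given above. The highest Tmem173fl/fl library lay just under the lowest Tmem173iΔmye library, and the log2 difference was 1.73 (SE 0.52, 95% interval 0.55 to 2.90, adjusted p = 0.112 by edgeR). Irgm2, whose colitic values are given above, had the lowest adjusted p (1.33, SE 0.38, 95% interval 0.47 to 2.19, adjusted p = 0.0967 by edgeR). Gbp3 held 52.1, 88.2 and 54.1 CPM in Tmem173iΔmye and 21.8, 48.4 and 17.9 CPM in Tmem173fl/fl colitic libraries. These groups were also apart (1.18, SE 0.39, adjusted p = 0.138 by edgeR). Gbp5 held 44.1, 56.6 and 31.0 CPM in colitic Tmem173iΔmye libraries, overlapped the other genotype, and had a log2 difference of 0.30 (95% interval -0.44 to 1.04, adjusted p = 0.645 by edgeR). Leaving out replicate 2 of colitic Tmem173fl/fl mice gave 2 calls, Gbp2 (2.50) and Gbp3 (1.76), beside 0.261% of all genes called higher, and leaving out any other single library gave 0. Without replicate 2 of colitic Tmem173iΔmye mice, the highest colitic library for every member, all 10 differences were smaller, from 0.084 (Gbp5) to 1.198 (Gbp2), with Irgm2 at 0.84, Igtp at 0.79, Iigp1 at 0.64, Gbp7 at 0.61 and Gbp6 at 0.55.

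Whether the response to DSS differed between the genotypes was tested with the interaction term over all 12 libraries. edgeR called 0 of 10 members. DESeq2 called 2 higher (Gbp7 and Irgm2), beside 2.10% of all genes, and limma 0, beside 0.556%. With the replicate number as a block some members were also called, as given further on. In edgeR 9 members had an unadjusted p under 0.05, as had 18.1% of all genes. Of all genes, edgeR called 0.934% with a higher and 1.61% with a lower response in Tmem173iΔmye mice. All 10 estimates were above 0, from 0.52 (Gbp5) to 1.90 (Iigp1), with a median of 1.55 against 0.04 over all genes. The lowest adjusted p was that of Irgm2 (1.39, SE 0.44, adjusted p = 0.113 by edgeR). This estimate holds the same colitic libraries as the comparison between colitic genotypes and is not separate evidence. Without replicate 2 of colitic Tmem173fl/fl mice 4 members were called (Gbp2, Gbp3, Igtp and Irgm1), beside 0.577% of all genes called higher, and without replicate 1 of colitic Tmem173iΔmye mice 2 (Gbp7 and Irgm2), beside 2.94%. Without replicate 2 of colitic Tmem173iΔmye mice 0 were called, and all 10 estimates were smaller, from 0.28 (Gbp5) to 1.34 (Gbp2), with Iigp1 at 1.03, Irgm1 at 0.88, Irgm2 at 0.87 and Gbp6 at 0.80.

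Gbp5 made up a larger share of the members' summed level in colitic than in untreated libraries. It was 0.722% to 0.972% of the summed FPKM of the 10 genes in the 6 untreated libraries. In colitic Tmem173fl/fl libraries it was 4.74%, 3.57% and 4.67%, and in colitic Tmem173iΔmye libraries 2.66%, 1.41% and 2.09%. The 2 colitic groups and the untreated libraries did not overlap one another. The log2 ratio of Gbp5 to the other 9 genes was 2.43 higher after DSS in the Tmem173fl/fl and 1.25 higher in the Tmem173iΔmye genotype, and the difference between the colitic groups (Tmem173iΔmye minus Tmem173fl/fl) was -1.15. Each of these had a two-sided exact permutation p of 0.1, the smallest that 3 against 3 libraries allow, and the measure was chosen after the values had been seen. Between untreated genotypes the ratio differed by 0.03 (exact permutation p = 0.9).

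**Figure D3:**
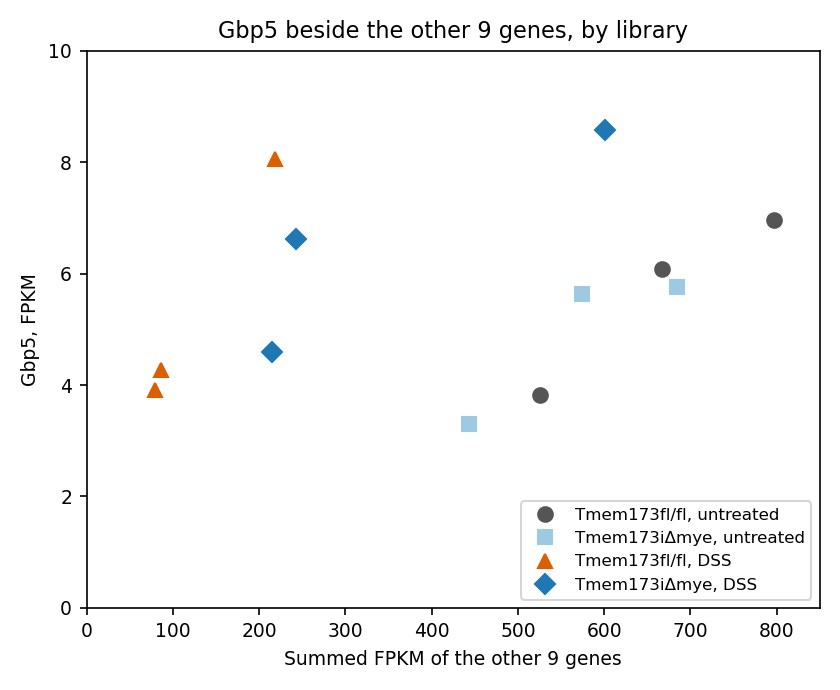
FPKM of Gbp5 (vertical axis) against the summed FPKM of the other 9 GTPase genes (horizontal axis); each point is 1 library, marked by group. Gbp5 spans similar levels in all groups. The sum of the others lies under all untreated libraries in the colitic Tmem173fl/fl libraries and in replicates 1 and 5 of colitic Tmem173iΔmye mice.

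The other 9 genes moved closely together. Over the 12 libraries, the correlation of log2 CPM between pairs of them ran from 0.92 to 0.99 (36 pairs), while pairs with Gbp5 ran from 0.17 to 0.48 (9 pairs). The libraries fall into groups and share their depth and scaling, so these values describe the 12 libraries only. Once each group's mean was removed, the pairs without Gbp5 ran from 0.74 to 0.96 and those with Gbp5 from 0.69 to 0.91. Within groups Gbp5 followed the order of the other members, and the low values over all libraries come from the differences between groups. Outside the 10 genes, the genes whose pattern was most like the members' mean profile, of 14548 candidates, were Tgtp1 (correlation 0.98), Ifi47 (0.98), Gm12250 (0.98), Cxcl9 (0.98) and Apol10b (0.97).

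Of 17 other GBP and IRG genes, DSS lowered 12 and raised none in Tmem173fl/fl colon by edgeR, beside 7.61% of all genes lowered and 14.9% raised, with a median log2 fold change of -1.78. The largest falls were those of Gm12185 (-4.26), Tgtp1 (-3.59), Gm12250 (-3.18) and Gm5431 (-2.83). In Tmem173iΔmye colon none of the 17 was called by edgeR (median -0.45, 4 with an unadjusted p under 0.05, beside 15.6% of all genes), and none between colitic genotypes (median 1.16, 7 with an unadjusted p under 0.05, beside 20.2% of all genes). The interaction term was called for Gm12185 alone (3.21, SE 0.67, adjusted p = 0.0246 by edgeR), beside 0.934% of all genes called higher. This call was lost without any 1 of 7 of the 12 libraries (2.56 to 3.37, adjusted p from 0.0504 to 0.0804). It was also lost without the 3 libraries in which Xist stood above Y-linked genes (3.57, adjusted p = 0.0672). The antiviral dynamin-like GTPases Mx1 (-3.27) and Mx2 (-2.21) and the very large GTPase Gvin1 (-1.95) all fell in Tmem173fl/fl mice. Mx1 was the only one of the 3 called in Tmem173iΔmye mice (-1.38, adjusted p = 0.0409 by edgeR), and that call was lost in limma (adjusted p = 0.147), in 1 fit of all 12 libraries (0.121), without those of its libraries in which Xist stood above Y-linked genes (0.0615) and without any 1 of 4 of the 6 libraries (adjusted p from 0.116 to 0.201). In these fits its log2 fold change ran from -1.53 to -1.06.

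**Figure D4:**
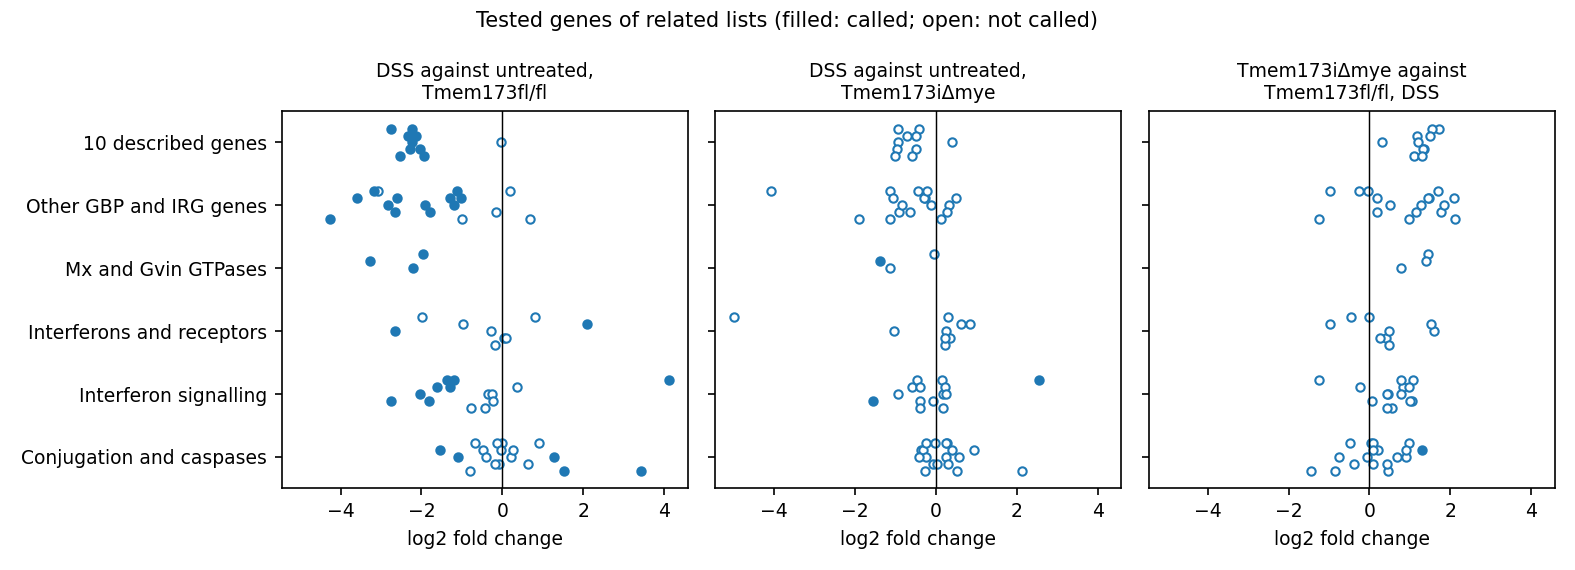
Log2 fold changes (horizontal axis) of all tested genes of 6 lists in 3 comparisons; each point is a gene, filled if called. In Tmem173fl/fl mice the described genes and the other GBP and IRG genes lie mostly to the left of 0, and the signalling and partner lists hold calls on both sides.

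Of 13 interferon and receptor genes, 9 passed the filter. Ifng, which encodes interferon gamma, held 2.31, 1.001 and 1.92 CPM in untreated and 0.112, 0.630 and 0 CPM in colitic Tmem173fl/fl libraries. It fell (log2 fold change -2.65, SE 0.80, adjusted p = 0.0261 by edgeR), and leaving out untreated replicate 1 or 3 or colitic replicate 1 ended the call (adjusted p from 0.0777 to 0.0794), with log2 fold changes of -2.41, -2.57 and -2.31. Ifnar2, a subunit of the type I interferon receptor, rose (2.09, adjusted p = 2.38e-05 by edgeR). No gene of this list was called in Tmem173iΔmye mice or between colitic genotypes by edgeR, where 2 and 4 of the 9 had an unadjusted p under 0.05, beside 15.6% and 20.2% of all genes.

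Of 14 interferon signalling genes, edgeR called 7 lower and 1 higher after DSS in Tmem173fl/fl mice, where 7.61% of all genes fell and 14.9% rose. The 4 largest were Socs3, an inhibitor of cytokine signalling (4.13), and the falls of Irf7 (-2.74), Stat2 (-2.04) and the MHC class I activator Nlrc5 (-1.81). In Tmem173iΔmye mice Irf7 (-1.56, adjusted p = 0.0110 by edgeR) fell and Socs3 (2.55, adjusted p = 0.0145) rose. Neither was called by limma, with adjusted p of 0.0664 and 0.118, or when any 1 untreated Tmem173iΔmye library was left out. The log2 fold changes in those fits ran from -1.67 to -1.44 for Irf7 and from 2.37 to 2.73 for Socs3.

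Of 18 genes for the ubiquitin-like conjugation system that guides GTPases to vacuoles and for the caspases and inflammasomes downstream, 2 fell and 3 rose in Tmem173fl/fl colitis. These counts are close to the background, since 7.61% of all genes were called lower and 14.9% higher. Nlrp3, the sensor whose assembly Gbp5 promotes, rose (3.43, adjusted p = 8.67e-06 by edgeR), as did Gabarapl1 (1.54) and Map1lc3a (1.29), which encode proteins conjugated to membranes. Casp1, the inflammasome protease, held 165, 161 and 193 CPM in untreated and 58.8, 51.6 and 68.2 CPM in colitic Tmem173fl/fl libraries, a fall of 1.53 on the log2 scale (adjusted p = 4.98e-05 by edgeR). In colitic Tmem173iΔmye libraries it held 92.1, 169 and 163 CPM, above all 3 of the other genotype (log2 difference 1.29, SE 0.25, adjusted p = 0.0344 by edgeR). That call was lost in limma (adjusted p = 0.0983) and without any 1 of 5 of the 6 libraries, all but replicate 1 of colitic Tmem173iΔmye mice (adjusted p from 0.0655 to 0.16). The log2 difference in those fits ran from 1.15 to 1.41. For Map1lc3a the interaction was called (-1.47, SE 0.22, adjusted p = 0.00631 by edgeR), beside 1.61% of all genes called lower.

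Marker genes of several cell types also differed between the groups, some lower and some higher with DSS. Epithelial markers summed to 6671 to 8260 FPKM in untreated and 2685 to 4719 FPKM in colitic Tmem173fl/fl libraries, with 6 of 10 called lower, beside 7.61% of all genes, and a median log2 fold change of -1.07. In Tmem173iΔmye libraries they summed to 7146 to 8722 FPKM untreated and 5495 to 6847 FPKM colitic. There 0 of 10 were called lower by edgeR (2 with an unadjusted p under 0.05, beside 15.6% of all genes). For 6 of 10 every colitic library lay under every untreated one, as for 9.63% of all genes in that direction. T and NK cell markers summed to 62.4 to 79.2 FPKM in untreated and 19.2 to 40.3 FPKM in colitic Tmem173fl/fl libraries. In the Tmem173iΔmye groups they summed to 43.8 to 99.5 and 10.1 to 43.8 FPKM. In Tmem173fl/fl colitis 2 of 9 were called lower, beside 7.61% of all genes. The cytotoxic genes Gzmb (-2.15) and Nkg7 (-1.79) were those 2, and Cd8a, at -0.85 (adjusted p = 0.00650 by edgeR), passed the test but not the fold. The T cell genes Cd3g (-0.89, adjusted p = 0.0685 by edgeR), Cd3e (-0.45, adjusted p = 0.298), Cd3d (-0.21, adjusted p = 0.653) and Cd4 (0.35, adjusted p = 0.503) did not pass. Monocyte and macrophage markers summed to 238 to 366 FPKM in untreated and 698 to 926 FPKM in colitic Tmem173fl/fl libraries. Of these markers 8 of 10 were called higher, beside 14.9% of all genes. In the Tmem173iΔmye groups they summed to 199 to 290.5 and 448 to 587 FPKM. In Tmem173fl/fl colitis 6 of 6 neutrophil (median log2 fold change 7.42), 5 of 5 fibroblast (2.47), 5 of 5 endothelium (2.18) and 3 of 3 red blood cell markers (5.46) were called higher, as were 14.9% of all genes. Neutrophil markers summed to 44.3 to 105 FPKM in untreated and 442 to 749.5 FPKM in colitic Tmem173fl/fl libraries, and to 203.5 to 304 FPKM in colitic Tmem173iΔmye libraries. Between colitic genotypes 2 of 10 monocyte and macrophage, 4 of 6 neutrophil, 4 of 5 fibroblast, 2 of 5 endothelium and 3 of 3 red blood cell markers were called lower in the Tmem173iΔmye group, as were 1.99% of all genes, opposite in sign to the GTPase means. Epithelial markers had the same sign as the GTPases in that comparison: 9 of 10 were higher in the Tmem173iΔmye group (median log2 difference 0.80). For 6 of them the groups did not overlap, as for 10.3% of all genes in that direction. Of the 10, edgeR called 0 (8 with an unadjusted p under 0.05, beside 20.2% of all genes). The interaction was called higher for 1 of 10 epithelial markers, Cdh1 (1.204, adjusted p = 0.0468 by edgeR), beside 0.934% of all genes. It was called lower for 2 of 10 monocyte and macrophage and 2 of 5 endothelium markers. Of fibroblast markers 3 of 5 and of red blood cell markers 3 of 3 were called lower, beside 1.61% of all genes. Of the T and NK list, Ncr1 and Klrb1c stayed under 1 FPKM in every library. The part of these markers in the GTPase differences was not tested.

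**Figure D5:**
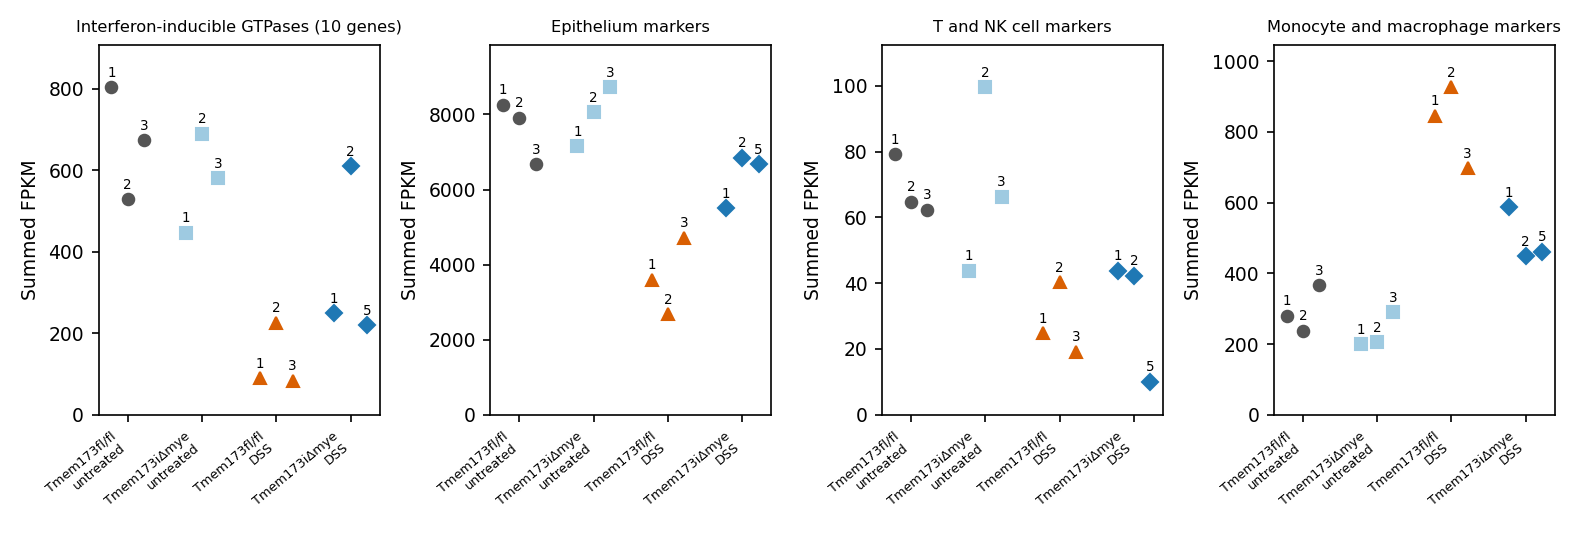
Summed FPKM in each library (vertical axes start at 0) of the 10 GTPase genes and of 3 lists of cell type markers, by group; numbers are replicate numbers. Replicate 2 of the colitic Tmem173iΔmye group stands at 610 FPKM for the GTPases and within the range of its group for T and NK cell markers. Replicate 2 of the colitic Tmem173fl/fl group is the highest of its group for both, at 226 and 40.3 FPKM.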

How the data were processed

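Total RNA of colon from 12 mouse samples was profiled by polyA RNA sequencing. The submitters' processing notes name CASAVA 1.8, fastp, HISAT2 2.0.5, featureCounts 1.5.0-p3 and DESeq2 1.20.0, with GRCm38; the use of strand is not given in the sources used here. The authors deposited whole-number counts per gene and FPKM values, with gene lengths, and columns of their own comparisons (DESeq2 log2 fold changes, p-values and group means), which were not used. Groups came from the sample titles.

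Genes that reached an FPKM of 0.1 in 3 or more libraries entered the tests of the counts in edgeR 4.0.16 (glmQLFit, glmQLFTest, TMM) in R 4.3.3, fitting the compared groups only and all 12 libraries for the interaction. Benjamini-Hochberg adjustment covered all 24102 genes. The scripts were tested on simulated data. Alternatives were RLE scaling, no filter, DESeq2 1.42.0, limma 3.58.1 on log2(FPKM + 0.1), a replicate block, 1 fit of all libraries, and leaving out libraries. Intervals are 95%. Exact permutation tests were two-sided.

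The members and lists were chosen with earlier results of these data known. All 10 members were named, with up to 4 called genes of each other list per comparison, and the 5 genes most like the members' mean z-scored log2(CPM + 1) among genes of mean FPKM of at least 1. The marker genes were named outside this rule. Shared sequence and exons were read from GENCODE transcripts.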

Additional observations from a re-analysis of the deposited data

Results flagged for a closer look

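Of the related lists, 2 genes differed between genotypes in their response to DSS, by the interaction term in edgeR. The lists held 17, 3, 9, 14 and 18 tested genes, and 2.55% of all genes were called. The count is therefore close to the background. For Gm12185 the interaction was 3.21 on the log2 scale. Its libraries held 37.8, 22.5 and 33.0 CPM in untreated and 1.23, 2.86 and 0.558 CPM in colitic Tmem173fl/fl colon, and 13.0, 13.4 and 17.9 CPM in untreated and 4.79, 11.5 and 3.86 CPM in colitic Tmem173iΔmye colon. The call was lost without any 1 of 7 of the 12 libraries. For Map1lc3a the interaction was -1.47, from 20.4, 18.6 and 17.4 CPM to 50.3, 41.8 and 44.4 CPM with DSS in Tmem173fl/fl colon and from 28.5, 31.6 and 33.5 CPM to 24.4, 29.9 and 24.1 CPM in Tmem173iΔmye colon. The call held under all 19 alternatives.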

How the results depend on the processing

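The 9 calls lower in Tmem173fl/fl colitis and the 0 calls between untreated genotypes held under every alternative run. In Tmem173iΔmye colitis the count of members called ran from 0 to 5 when single libraries were left out. Between colitic genotypes it was 2 without the filter, 7 by DESeq2, 3 with 1 fit of all 12 libraries (beside 1.51%, 2.75% and 2.54% of all genes called higher) and from 0 to 2 with single libraries left out. For the interaction it was 6 without the filter, 2 by DESeq2 (1.42% and 2.10% of all genes) and from 0 to 4 with single libraries left out. With the replicate number as a block, 8 members were called between colitic genotypes (1.55% of all genes called higher) and 3 for the interaction (1.11%), and no other count of members moved. A library whose number is missing from the other group, such as replicate 5, adds nothing to the contrast in that fit. The labels give no pairing behind the numbers, and deviations of same-numbered libraries showed no steady correlation (from -0.19 to 0.21). For the members, though, replicate 2 was the highest library for 10 of 10 in each colitic group. The cause of these moves in the counts was not tested. The sign of uncalled values turned as follows. Without the libraries in which Xist stood above Y-linked genes, Gbp5 in Tmem173fl/fl colitis was 0.033 and Gbp2 between untreated genotypes 0.080. With single libraries left out, Gbp5 in Tmem173fl/fl colitis ran from -0.46 to 0.15, and between untreated genotypes Gbp2 from -0.50 to 0.088, Gbp3 from -0.54 to 0.088, Gbp5 from -0.41 to 0.026, Irgm1 from -0.33 to 0.037 and Irgm2 from -0.13 to 0.042. Without the filter the median of all genes in Tmem173fl/fl colitis was 0.11.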

Other observations

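Gbp2b, a GBP gene outside the 10 described, was picked out after its values had been seen. It held 9.67, 186.5 and 10.04 CPM in untreated Tmem173fl/fl and 5.41, 9.99 and 184.5 CPM in untreated Tmem173iΔmye libraries. After DSS it held 22.2, 1.60 and 0.209 CPM in Tmem173fl/fl and 4.29, 5.30 and 2.23 CPM in Tmem173iΔmye libraries. A single untreated library of each genotype thus stood far above the other 2 of its group, and Gbp2, which shares 2.03% of its 50-base words with Gbp2b, was not the highest of its group in either of them.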
